A study of Mus musculus with 2 samples.

Results

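The TGF-beta ligands Tgfb1, Tgfb2 and Tgfb3, their receptors Tgfbr1, Tgfbr2 and Tgfbr3, and the signal transducers Smad2, Smad3 and Smad7 were followed in mouse sarcoma cells silenced for circCsnk1g3. These 9 genes were found by symbol among the 25509 genes of the deposited count table. The group was chosen by the low count of Tgfbr2 in the silenced cells, so every value that compares the libraries is a description and none was tested. The groups hold 1 library each, from cells that carried a hairpin against circCsnk1g3 (shcircCsnk1g3) or a control hairpin (shCTR). Both libraries came from soft-tissue sarcoma cells of C57BL/6 background that lack p53 and overexpress Ccne1 (p53-/-Ccne1+). According to the labels and the study's methods, these cells derived from bone mesenchymal cells of p53-deficient mice, received Ccne1 by retrovirus, grew first as subcutaneous tumors and then in the lungs of further mice, and were transduced after recovery from lung foci. The number of mice or cell clones behind each library is not given in the sources used here. With 1 library per condition there is no replicate check. A difference between the libraries cannot be told apart from a difference between the cultures, or from an effect of the hairpin other than on circCsnk1g3.

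TGF-beta is secreted in a latent complex and, once released, binds the type II receptor TGFBR2. This receptor recruits and phosphorylates the type I receptor TGFBR1, and betaglycan, the product of Tgfbr3, presents ligand to them. TGFBR1 phosphorylates SMAD2 and SMAD3, which enter the nucleus with SMAD4 and regulate transcription, and SMAD7 is an induced inhibitor that closes the loop. In mesenchymal cells the pathway is known for driving extracellular matrix and contractile genes.

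TGFBR1 and TGFBR2 act as 1 complex. Whether the promoters of their genes bear on the RNA levels was not tested, and the sequences in front of both genes are shown as background. These are the 250 bases upstream of the RefSeq start on GRCm38.p6, for Tgfbr2 at chr9:116175364-116175613 on the minus strand and for Tgfbr1 at chr4:47352972-47353221 on the plus strand. Capitals mark the GC box (GGGCGG), the CCAAT box (CCAAT) and the core of the Smad-binding element (CAGAC), each searched on both strands together with the TATA box (TATAAA).
Tgfbr2: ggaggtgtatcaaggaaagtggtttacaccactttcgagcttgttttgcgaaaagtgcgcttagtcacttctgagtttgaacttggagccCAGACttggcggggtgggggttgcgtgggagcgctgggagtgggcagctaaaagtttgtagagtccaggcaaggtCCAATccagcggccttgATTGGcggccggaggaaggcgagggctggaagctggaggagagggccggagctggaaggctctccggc
Tgfbr1: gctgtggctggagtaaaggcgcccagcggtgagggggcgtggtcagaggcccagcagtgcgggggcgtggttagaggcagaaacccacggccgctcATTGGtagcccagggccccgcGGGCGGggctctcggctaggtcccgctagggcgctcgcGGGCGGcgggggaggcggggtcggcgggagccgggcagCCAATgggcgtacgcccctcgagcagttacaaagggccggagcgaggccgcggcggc
The Tgfbr2 window held 2 CCAAT boxes, 68 and 85 bases before the start, and 1 CAGAC 160 bases before it. The Tgfbr1 window held 2 CCAAT boxes and 2 GC boxes. No GC box was found in the Tgfbr2 window, no CAGAC in the Tgfbr1 window shown, and no TATA box in either. No marked motif overlapped another. The GC content was 58.4% for Tgfbr2 and 74.8% for Tgfbr1, with a median of 52.4% over all promoter windows. Of 32851 promoter windows of the same length, 33.8% held a CCAAT box, 32.7% a GC box, 42.2% a CAGAC and 12.4% a TATA box. Windows of 5 of the 9 genes were used (Tgfb1, Tgfb2, Tgfbr1, Tgfbr2 and Smad3). A further Tgfbr1 start in RefSeq had a window with 1 CAGAC and none of the other motifs. The Tgfb1 window held 5 GC boxes, that of Smad3 held 2, and that of Tgfb2 held a TATA box 31 bases before the start, a CCAAT box 130 bases before it and 2 copies of CAGAC.

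The summed count was 42709996 for shCTR and 38792143 for shcircCsnk1g3. Levels are given as TMM-scaled CPM, which are counts relative to a library size adjusted for composition. Each log2 fold change is shcircCsnk1g3 over shCTR with a prior count of 2, followed in brackets by a 95% Clopper-Pearson interval computed on the pair of counts. That interval covers counting error only and treats the estimated counts as whole reads. The linear transcript of Csnk1g3, the host gene of the silenced circRNA, had 2159 counts in shcircCsnk1g3 and 2411 in shCTR, with a log2 fold change of -0.05 (-0.14 to 0.03). These libraries hold poly(A) RNA and do not measure the circRNA itself, so its silencing is taken from the study. In bulk RNA, a smaller number of cells that express a gene and less RNA per cell cannot be told apart.

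Tgfbr2 RNA was about 3-fold lower in the circCsnk1g3-silenced library, whereas the log2 fold changes of the other 8 genes lay between -0.25 and 0.35. All 9 genes passed the filter, which asked for 10 counts or more in either library, and each had at least 200 counts summed over both libraries. At least 2-fold lower was 1 of the 9 genes, Tgfbr2, against 2.55% of the 12941 genes tested and 0.741% of the 10662 genes with at least 200 summed counts. None of the 9 was at least 2-fold higher, against 2.13% and 0.563% of genes in the same order. The interval lay above 0 for 4 members (Tgfb3, Tgfbr1, Smad2 and Smad3), a share to be read against 26.9% of all genes tested and 29.5% of those with at least 200 summed counts. It lay below 0 for 2 members (Tgfb1 and Tgfbr2), against 28.2% and 31% of genes. Intervals of counting error leave out 0 for many genes here, since they hold no variation between cultures. The median over the members was 0.15, beside 0.00 over all genes tested.

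**Figure D1:**
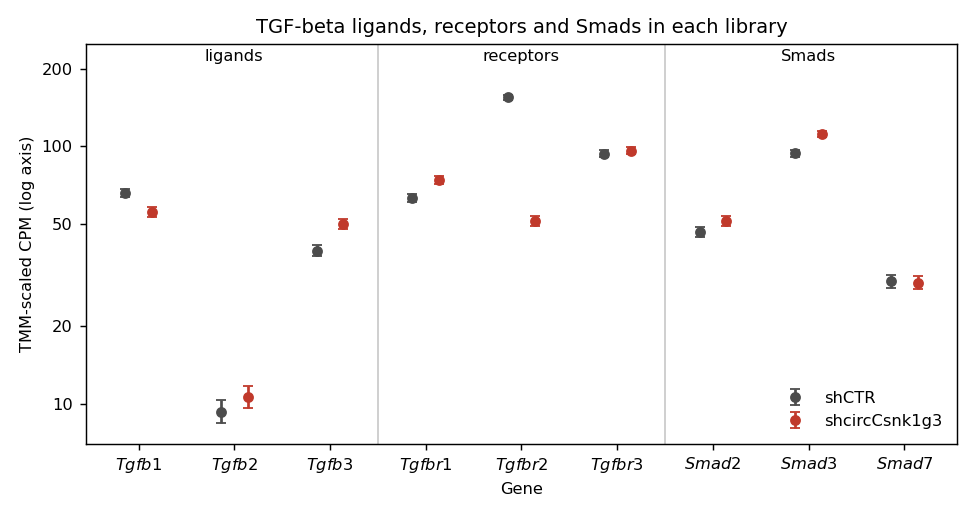
TMM-scaled CPM (log axis) of the 9 genes in the shCTR library (grey) and the shcircCsnk1g3 library (red), 1 library each, with 95% exact Poisson intervals that cover counting error only. Tgfbr2 was at 154.9 in shCTR and 51.3 in shcircCsnk1g3, and the other genes lay close to each other in the 2 libraries.

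Among the receptors, Tgfbr2 (ENSMUSG00000032440, chromosome 9, 116084293 to 116175360, minus strand, GRCm38) encodes the type II receptor kinase that binds ligand and starts the signal. It had 2013 counts in shcircCsnk1g3 and 6544 in shCTR, or 51.3 and 154.9 CPM. The silenced library thus held 33.2% of the control level, a log2 fold change of -1.59 (-1.67 to -1.52). Counts are per gene and do not separate the 2 annotated transcripts of Tgfbr2. Its partner Tgfbr1 (ENSMUSG00000007613, chromosome 4, 47353222 to 47414931), the type I receptor kinase, had 2904 and 2662 counts, or 74.1 CPM in shcircCsnk1g3 and 63.0 in shCTR. Its log2 fold change of 0.23 (0.16 to 0.31) lay on the other side of 0. The co-receptor gene Tgfbr3 (ENSMUSG00000029287, chromosome 5, 107106570 to 107289629) had 3770 and 3954 counts, or 96.1 and 93.6 CPM, with no difference detectable beyond counting error (0.04, -0.03 to 0.10).

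**Figure D2:**
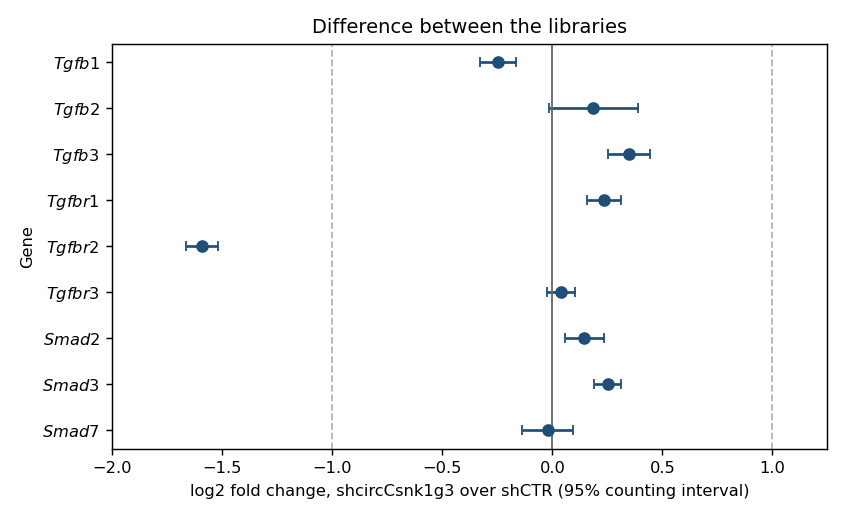
Log2 fold change of shcircCsnk1g3 over shCTR for the 9 genes, with the 95% exact interval of the ratio of counts. Solid and dashed lines mark no difference and a 2-fold difference. Tgfbr2 is the only one of the 9 points beyond a dashed line, at -1.59, and the intervals of Tgfb2, Tgfbr3 and Smad7 hold 0.

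The balance of receptor RNAs was compared as a ratio of counts within each library, which needs no library size. The ratio of Tgfbr2 to Tgfbr1 was 2.46 (2.35 to 2.57) in shCTR and 0.693 (0.655 to 0.734) in shcircCsnk1g3, so the receptor with the higher count was Tgfbr2 in the control and Tgfbr1 in the silenced cells. The ratio in shcircCsnk1g3 was 0.282 (0.262 to 0.303) of that in shCTR. The ratio of Tgfbr3 to Tgfbr1 differed less, with 1.49 (1.41 to 1.56) in shCTR and 1.30 (1.24 to 1.36) in shcircCsnk1g3.

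**Figure D3:**
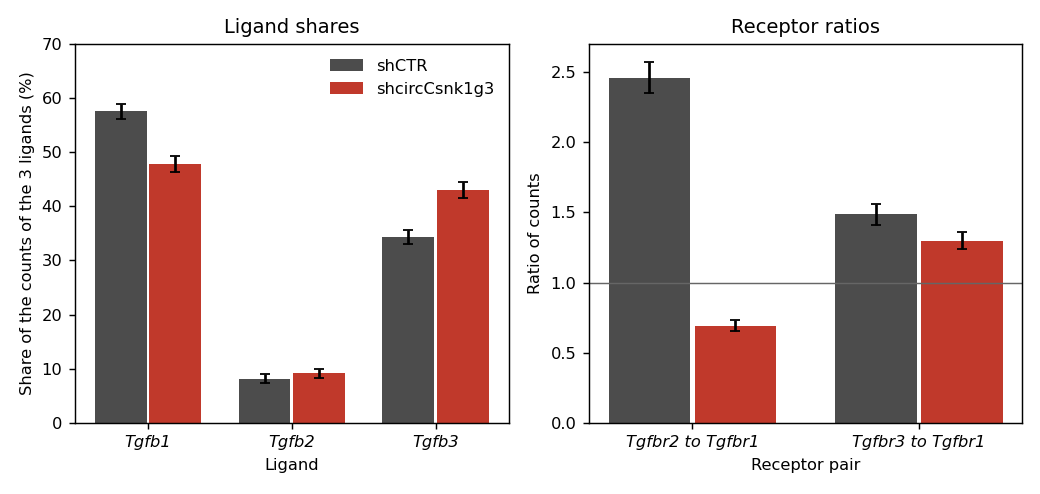
Left, share of each ligand in the summed counts of Tgfb1, Tgfb2 and Tgfb3 (%), and right, ratio of receptor counts, in shCTR (grey) and shcircCsnk1g3 (red), with 95% exact binomial intervals and a line at a ratio of 1. The ratio of Tgfbr2 to Tgfbr1 is 2.46 in shCTR and 0.693 in shcircCsnk1g3, and the Tgfb1 share is 57.6% and 47.9%.

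The ligand genes differed in direction between the libraries. Tgfb1 (ENSMUSG00000002603, chromosome 7, 25687002 to 25705077), which encodes the most widely expressed isoform, had 2181 counts in shcircCsnk1g3 and 2787 in shCTR, or 55.6 and 66.0 CPM. Its log2 fold change was -0.25 (-0.33 to -0.16). Tgfb3 (ENSMUSG00000021253, chromosome 12, 86056745 to 86079041) differed in the other direction, with 1960 and 1661 counts, or 49.98 and 39.3 CPM, and a log2 fold change of 0.35 (0.25 to 0.44). Tgfb2 (ENSMUSG00000039239, chromosome 1, 186622792 to 186705989), the least abundant ligand, had 416 and 394 counts, or 10.6 and 9.33 CPM, with no difference detectable beyond counting error (0.18, -0.02 to 0.39).

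Of the 4842 ligand counts in shCTR, 57.6% (56.2 to 59.0) were Tgfb1, 34.3% (33.0 to 35.7) Tgfb3 and 8.14% (7.38 to 8.94) Tgfb2. Of the 4557 in shcircCsnk1g3, 47.9% (46.4 to 49.3) were Tgfb1, 43.0% (41.6 to 44.5) Tgfb3 and 9.13% (8.31 to 10.002) Tgfb2. The intervals of the 2 libraries did not overlap for Tgfb1 or Tgfb3 and overlapped for Tgfb2. The ratio of Tgfb1 to Tgfb3 in the silenced library was 0.663 (0.608 to 0.723) of that in the control library.

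The receptor-regulated Smads were slightly higher in the silenced library, and for the inhibitory Smad no difference was detectable beyond counting error. Smad3 (ENSMUSG00000032402, chromosome 9, 63646767 to 63757994) had 4382 counts in shcircCsnk1g3 and 3967 in shCTR, or 111.7 and 93.9 CPM, with a log2 fold change of 0.25 (0.19 to 0.31). Smad2 (ENSMUSG00000024563) had 2018 and 1965 counts, or 51.5 and 46.5 CPM, with 0.15 (0.06 to 0.24). Smad7 (ENSMUSG00000025880), itself a gene that TGF-beta signaling switches on, had 1156 and 1264 counts, or 29.5 and 29.9 CPM, with a log2 fold change of -0.02 whose interval held 0 (-0.14 to 0.09). The ratio of Smad3 to Smad2 was 2.17 and 2.02 in the same order, and the interval of its change held 1 (0.997 to 1.16). The ratio of Smad7 to Smad3 was 0.264 in shcircCsnk1g3 and 0.319 in shCTR, a change of 0.828 (0.755 to 0.907) whose interval left out 1. The common partner Smad4, which carries the signal of both the TGF-beta and the BMP branch, had 4262 and 4094 counts and a log2 fold change of 0.17 (0.10 to 0.23).

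**Figure D4:**
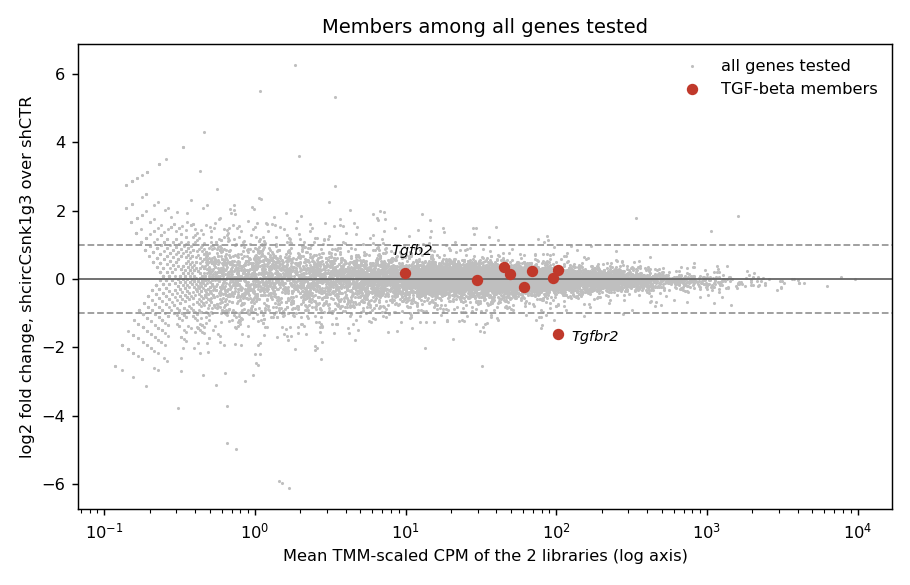
Log2 fold change of shcircCsnk1g3 over shCTR against the mean TMM-scaled CPM of the 2 libraries (log axis), for the 12941 genes tested (grey) and the 9 TGF-beta genes (red). Dashed lines mark a 2-fold difference. Tgfbr2 lies below the lower dashed line at -1.59, and the other 8 red points, of which Tgfb2 has the lowest level, lie between the dashed lines.

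Over all 12941 genes tested, many of them with few counts, Tgfbr2 was 108 in order from the lowest log2 fold change. The group was chosen by this low value, so the ranks of Tgfbr2 given here only describe that choice. When genes of 200 or more summed counts were ranked, 10 of 10662 (0.0938%) had a log2 fold change as low as that of Tgfbr2 or lower. A value as low as that of Tgfb1 was reached by 13.5% of these genes, and values as high as those of Tgfb3, Smad3, Tgfbr1 and Smad2 by 6.73%, 11.9%, 13.5% and 23.5%. Differences of the size of these 5 genes were thus common between the 2 libraries. Among the 9084 genes whose mean reached 10 CPM, Tgfbr2 ranked 4 from the lowest. The genes nearest to it in this order, by the difference of log2 fold changes over the 2 libraries, were Dazap2 with -1.59 (2666 and 8629 counts) and Sod3 with -1.55 (656 and 2072 counts) on one side, and Apln with -1.75 (369 and 1345 counts) and Gemin4 with -2.02 (208 and 918 counts) on the other. Sod3 encodes extracellular superoxide dismutase and Apln the peptide ligand apelin.

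Levels of different genes were compared as CPM per kb of annotated exon. In shCTR, Tgfbr2 was the highest of the 9 genes with 18.9 CPM per kb, and in shcircCsnk1g3 it was 7 in order with 6.27. Smad3 was 2 in order in shCTR with 16.9 and the highest in shcircCsnk1g3 with 20.2. Tgfbr3 followed with 14.3 in shCTR and 14.7 in shcircCsnk1g3, Tgfb3 with 11.6 and 14.8, Tgfb1 with 13.1 and 11.0, and Tgfbr1 with 9.64 and 11.3. Over the 2 libraries, the ranges of neighbors in the order Tgfbr3, Tgfb3, Tgfbr2, Tgfb1 and Tgfbr1 overlapped, so this order is not resolved. Below them, Smad7 (6.62 and 6.52), Smad2 (5.30 and 5.86) and Tgfb2 (1.61 and 1.83) had ranges that did not overlap each other, and Tgfbr2 in shcircCsnk1g3 lay below Smad7. The place of Tgfb1 depends on its length, because its annotated exons cover 5042 bases and its longest transcript 2573. With the longest transcript as the length of every gene, Tgfb1 was the highest in shCTR with 25.6, ahead of Tgfbr2 with 19.1, and in shcircCsnk1g3 it was at 21.6 beside 21.95 for Smad3. On that length Tgfbr2 in shcircCsnk1g3 was at 6.34, below Smad2 with 6.36 as well as Smad7 with 6.89.

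Other genes of the pathway were taken from 5 lists, of which 77 of 90 genes passed the count filter. At least 2-fold higher were 2 of the 77 and at least 2-fold lower another 2, against 2.13% and 2.55% of all genes tested. The intervals of 26 of the 77 lay above 0, against 26.9% of all genes tested and 29.5% of those with 200 or more summed counts. Those of 29 lay below 0, against 28.2% and 31%. The median was -0.04, beside 0.00 over all genes tested. Of the 77, 34 were higher and 43 lower, beside 6521 and 6420 of all genes tested. The same shares are the background for each list. The list of latency and activation had 13 tested genes, 4 of them higher and 9 lower, with a median of -0.15. The intervals of 3 of the 13 lay above 0, against 26.9% of all genes tested, and those of 9 below 0, against 28.2% of all genes tested and 31% of those with 200 or more summed counts. Thbs1, encoding the matricellular activator thrombospondin 1, had the highest level per kb of this list and was lower in the silenced library, with 42428 and 76914 counts (-0.75, -0.77 to -0.73). Ltbp2, a matrix protein of the latent TGF-beta binding family, had 1292 and 2462 counts (-0.82, -0.92 to -0.72). Lrrc32, which encodes the surface anchor of latent TGF-beta GARP, was higher with 309 and 219 counts (0.60, 0.35 to 0.86), as was the integrin subunit Itgb8 with 214 and 166 counts (0.47, 0.17 to 0.78). The gene of this list past 2-fold was Nrros, named after its values were seen, with 11 and 4 counts and an interval that held 0 (-0.19 to 3.67). It passed the count filter only through the shcircCsnk1g3 library, where it was the higher, so its place among the 4 higher genes and among the 2 past 2-fold carries no weight. Bmpr1b and Cthrc1 of the lists that follow also reached 10 counts in 1 library alone, and their intervals held 0.

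Of 6 tested accessory receptors, 2 were higher and 4 lower, and the median was -0.09. The interval of 1 lay above 0, those of 2 below 0 and those of 3 held 0, against 26.9% above and 28.2% below for all genes tested. Eng, which encodes the co-receptor endoglin, had 94 counts in shcircCsnk1g3 and 146 in shCTR (-0.52, -0.92 to -0.14). Cd109, a surface antagonist of the receptors, had 1702 and 2042 counts (-0.16, -0.25 to -0.06). Pmepa1, a TGF-beta-induced inhibitor with the highest level per kb here, had 2055 and 1984 counts (0.16, 0.07 to 0.25), and the decoy receptor Bambi had 281 and 297 (0.03, -0.21 to 0.27).

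Of 13 tested partners of the Smads, 8 were higher and 5 lower, and the median was 0.08. The intervals of 8 lay above 0 and of 3 below 0, against 26.9% and 28.2% of all genes tested. The corepressor Skil, itself induced by TGF-beta, had 5557 and 4182 counts (0.52, 0.46 to 0.58). Zfyve9, encoding the SMAD anchor SARA, had 3005 and 2338 counts (0.47, 0.39 to 0.55), and the corepressor Tgif1, with the highest level per kb, had 8757 and 8184 (0.21, 0.16 to 0.25). Lower were Tgif2 with 443 and 708 counts (-0.57, -0.74 to -0.40) and the ubiquitin ligase Smurf2 with 1552 and 2177 counts (-0.38, -0.48 to -0.29).

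In the BMP and activin branch, which uses related receptors and Smads, 22 genes were tested. Of these, 7 were higher and 15 lower, and the median was -0.05. The intervals of 2 lay above 0 and of 5 below 0, against 26.9% and 28.2% of all genes tested, and 15 held 0. Id3, a BMP-responsive regulator, had 5372 and 3645 counts (0.67, 0.61 to 0.73), and the activin receptor Acvr2a had 657 and 490 (0.53, 0.36 to 0.70). The activin antagonist Fstl3 had 1025 and 1865 counts (-0.75, -0.87 to -0.65) and the BMP antagonist Grem1 6715 and 8532 (-0.24, -0.28 to -0.19).

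Of 23 tested genes known to be induced by TGF-beta in mesenchymal cells, 13 were higher and 10 lower, and the median was 0.07. The intervals of 12 lay above 0 and of 10 below 0, against 26.9% and 28.2% of all genes tested. Among genes with 200 or more summed counts these shares were 29.5% and 31%. The interval narrows as counts rise, so for genes with high counts, such as Tgfbi and Col1a2, a small difference also leaves out 0. Past 2-fold were 1 on the high side and 2 on the low side, against 2.13% and 2.55%. The contractile genes Cnn1 (37 and 173 counts, -2.06, -2.67 to -1.60) and Tagln (100 and 270 counts, -1.31, -1.67 to -0.99) were the 2 past 2-fold on the low side, while the contractile gene Acta2 of the same list, named after its values were seen, had 1227 and 1174 counts (0.17, 0.05 to 0.29). Postn, encoding the matrix protein periostin, was past 2-fold on the high side with 59 and 21 counts (1.51, 0.86 to 2.39). The cell cycle inhibitor Cdkn1a, also a p53 target, had 2071 and 1515 counts (0.56, 0.46 to 0.66). Tgfbi, a matrix protein, had 32128 and 27526 counts (0.33, 0.31 to 0.35). It had the highest level per kb of annotated exon in the list, 172.8 in shCTR and 217.3 in shcircCsnk1g3, but per kb of the longest transcript Col1a2, which encodes a chain of type I collagen, was higher with 317.1 and 373.1 beside 217.0 and 272.8 for Tgfbi.

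**Figure D5:**
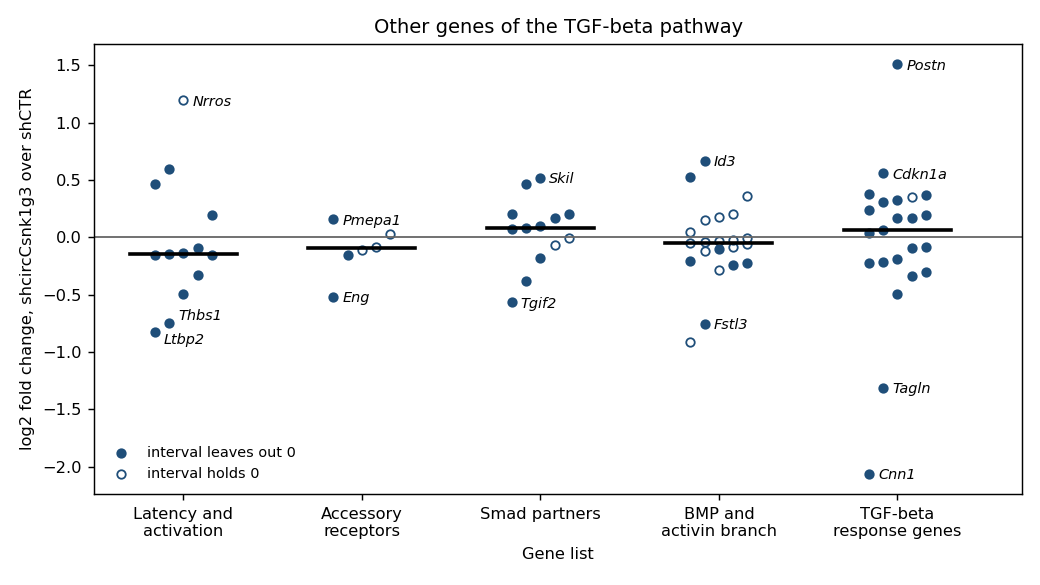
Log2 fold change of shcircCsnk1g3 over shCTR for the tested genes of 5 lists of the TGF-beta pathway, without the 9 members. Each point is a gene, filled where its 95% counting interval leaves out 0, and bars are the list medians, which lie between -0.15 and 0.08. Cnn1 at -2.06 and Tagln at -1.31 are the lowest points, and Postn at 1.51 the highest.

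The cell type on the labels was checked against markers. Of 8 mesenchymal markers, 6 passed the count filter, with Vim at 6683 CPM in shCTR and 5746 in shcircCsnk1g3, whereas Thy1 and Fap had at most 1 count in either library. The summed level of the 8 was 8091 CPM in shCTR and 6999 in shcircCsnk1g3, and the intervals of 4 of the 6 tested lay below 0, against 28.2% of all genes tested. Ly6a and Pdgfra had the lowest log2 fold changes (-0.69 and -0.31), while the intervals of Pdgfrb (-0.04) and Col5a1 (0.01) held 0. The 11 leukocyte markers summed to 3.98 and 2.52 CPM, with Cd68 at 155 of 168 counts in shCTR and 87 of 99 in shcircCsnk1g3, and with Itgam, Adgre1, Lyz2, Cd3e, Nkg7 and S100a8 at 0 in both libraries. The 7 endothelial markers summed to 0.757 and 0.485 CPM with Kdr and Emcn at 0 in both. The 8 lung epithelial markers summed to 0.686 and 0.714 CPM with Epcam, Sftpc, Sftpa1, Scgb1a1 and Krt5 at 0 in both. The part of the differing mesenchymal marker levels in the Tgfbr2 difference was not tested.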

How the data were processed

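Poly(A) RNA of the 2 libraries was sequenced by the authors from a stranded kit. Per the study's methods, reads were converted with bcl2fastq 2.20, aligned to GRCm38 with STAR 2.6.1 and turned into gene values by RSEM 1.2.28. The authors deposited the RSEM estimated counts as whole numbers for 25509 genes and 92 spike-in rows, which were 0 and left out. The authors also deposited TMM-scaled CPM for 11624 genes, made with edgeR 3.30, each column being the counts divided by 1 constant.

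TMM factors (edgeR 4.0.16, R 4.3.3) came from the 12941 genes that reached 10 counts in either library and were applied to the summed counts, which sets the depth. Ratios and intervals were computed with scipy 1.17.1, numpy 2.4.6 and pandas 2.3.3 in Python 3.11.15, and plots drawn with matplotlib 3.10.9. Coordinates, exon lengths and transcripts are from GENCODE M21 (GRCm38). The authors' release is not given in the sources used here. Promoter windows are from RefSeq (GRCm38.p6). RSEM divides reads shared between genes, and whether counting used the strand is not given. Exons of Tgfb2 and Tgfb3 overlap opposite-strand genes over 2.14% and up to 7.60% of their bases, and those of Tgfbr3 a same-strand gene over 4.54%. With 1 library per group no test between conditions was made. The code was tested on simulated counts.

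The members and lists were chosen with earlier results of these data known. Genes named beside the members are, per list, the 2 highest and 2 lowest with a mean of at least 1 CPM and the highest mean level per kb of annotated exon, also Skil, Pmepa1 and Smad4, the 2 genes on either side of Tgfbr2 by log2 fold change with a mean of at least 10 CPM, and Csnk1g3. A result for 1 further gene under this rule is left out here. Acta2, Nrros, Bmpr1b, Cthrc1, Col1a2 and the marker genes fall outside this rule and were named with their values known. Alternatives were DESeq2 1.42.0 size factors, no TMM factors (total counts), prior counts of 0.5 and 10, no count filter, at least 200 summed counts, the deposited TMM-scaled CPM, a 1.5-fold threshold and other lengths.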

Additional observations from a re-analysis of the deposited data

How the results depend on the processing

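No paired analysis was possible because each condition had 1 library, and for the same reason no replicate could be left out. The 2 other count filters leave the values of the 9 members as they were by construction and say nothing of their stability. Under the 5 alternatives that could move them, every member's value stayed within its interval, with Tgfbr2 between -1.59 and -1.56. Smad7, whose interval held 0, changed sign with total counts only (0.01), a setting that moved the median of all genes by 0.03. The 42 list medians stayed within the median half-width of the members' intervals.

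The number of genes past 2-fold moved with the handling of low counts. The 275 higher and 330 lower genes became 150 and 171 with a prior count of 10, 732 and 623 without a count filter, 107 and 168 in the deposited TMM-scaled table, 60 and 79 with at least 200 summed counts, and 698 and 817 at 1.5-fold. Filters and thresholds change these numbers by construction. The deposited table holds 11624 genes beside the 12941 tested here, and the part of this smaller set in its numbers was not tested.

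Levels per kb move ligand shares and receptor ratios by the ratio of gene lengths. In shCTR the shares became 49.7% for Tgfb1, 44.2% for Tgfb3 and 6.12% for Tgfb2, and in shcircCsnk1g3 39.9%, 53.5% and 6.63%. The order of Tgfb1 and Tgfb3 in shcircCsnk1g3 depends on the length used, since per kb of the longest transcript Tgfb1 was at 21.6 CPM and Tgfb3 at 14.8. The ratio of Tgfbr2 to Tgfbr1 per kb was 1.96 in shCTR and 0.553 in shcircCsnk1g3. The change of a ratio between libraries does not depend on length. With the longest transcript in place of all exons, 9 genes in 2 libraries were recomputed, and Tgfb1 alone moved by over 1.5 times. Tgfb2, with the fewest counts, has the widest interval of the members.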
